A study of Homo sapiens with 2 samples.

Results

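LINC symbols are the numbered names given to long intergenic noncoding RNA genes that carry no name of their own. GENCODE release 29, the annotation that the transcript models match, lists 1881 genes named LINC followed only by digits. Of these, 230 had at least 1 read in either of 2 direct RNA libraries, and the 118 with 3 or more reads over both libraries are described here, out of 16645 annotated genes with a read. Both libraries came from GM12878, a B-lymphoblastoid line transformed with Epstein-Barr virus, and form 1 group with no treatment named, as replicates 1 and 2. The labels do not say whether these were separate cultures, so their spread may be technical. Native RNA strands were read through a nanopore from the 3′ end, without PCR copies; the starting material is labelled as depleted, without saying of what, and was reverse transcribed to open its folds. There were 1360368 reads in replicate 1 and 1510998 in replicate 2. CPM is the share of a library's reads scaled to 1e6 reads, so that a single read equals 0.735 and 0.662 CPM. As a check of the labelled cell type, all 8 B cell markers on a list were read, among them CD79A (688 and 679 CPM) and PAX5 (39.7 and 46.3 CPM), while 5 of 8 markers of other lineages had no read and the others, CD3E, COL1A1 and APOA1, had 5 and 16, 2 and 3, and 0 and 1 reads.

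Long noncoding RNAs of this kind are transcribed by RNA polymerase II and are usually capped, spliced and polyadenylated like mRNAs, but have fewer exons and lower levels. Many are expressed in a narrow range of cell types, some act at the locus they are transcribed from, and for most no function is known. Because the reading starts at the 3′ end, a strand that breaks or stops early loses its 5′ exons first, and a read can be assigned to an annotated transcript only if its splice junctions are covered.

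LINC02446, near the KLR genes of chromosome 12 (10553363 to 10558049, plus strand, GRCh38), had the most reads. Blood cell atlases know it as a transcript of CD8 T cells. Its 1 annotated transcript, LINC02446-201, has 2 exons of 154 and 714 bases separated by an intron of 3819 bases (exon 1 at 10553363 to 10553516, exon 2 at 10557336 to 10558049). The first 300 of its 868 bases, 5′ to 3′, are shown because of the difference between the libraries in this gene, given below. It lies mainly in models of 1 exon, which lack this junction. Capitals mark 10 bases on each side of the junction, and the sequence is that of GENCODE release 29 (GRCh38).
LINC02446-201: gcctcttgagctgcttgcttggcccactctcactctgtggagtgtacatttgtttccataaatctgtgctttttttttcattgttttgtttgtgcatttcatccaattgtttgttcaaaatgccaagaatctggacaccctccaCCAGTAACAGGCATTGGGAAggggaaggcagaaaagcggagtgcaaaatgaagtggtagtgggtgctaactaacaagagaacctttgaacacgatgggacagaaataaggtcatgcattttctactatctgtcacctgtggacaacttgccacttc

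The 3′ ends of annotated transcripts are the part that a nanopore reads first. The last 60 bases are shown for the most-read known transcript of 6 further members among those with the most reads in known models, 5′ to 3′ on the strand of the gene, with the polyadenylation hexamer AATAAA or ATTAAA in capitals where it lies in the last 50 bases.
LINC01578-209: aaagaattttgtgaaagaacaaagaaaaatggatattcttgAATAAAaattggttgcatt
LINC00667-204: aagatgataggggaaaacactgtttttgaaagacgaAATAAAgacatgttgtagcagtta
LINC01055-201: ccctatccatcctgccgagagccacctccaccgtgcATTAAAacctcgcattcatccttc
LINC00467-201: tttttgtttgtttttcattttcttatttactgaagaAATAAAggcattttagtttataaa
LINC00528-201: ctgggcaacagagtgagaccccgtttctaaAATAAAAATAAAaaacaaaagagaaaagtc
LINC01857-201: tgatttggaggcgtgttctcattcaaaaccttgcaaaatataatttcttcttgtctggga

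With LINC02446-201, whose last bases are not shown and hold none, counted, 5 of these 7 transcripts held a hexamer, and LINC00528-201 held 2 of them. The hexamer was present in 59 of the 90 known member models with a read (65.6%, 95% Wilson interval 55.3 to 74.6%). It was present in 189 of the 542 annotated transcripts of the same genes that had no read (34.9%, 31.0 to 39.0%). In known models with a read, the share was 59.3% for protein-coding genes and 67.8% for other genes of the type lincRNA, and over all 206435 transcripts of the release with at least 60 bases it was 31.3%. The reverse complements TTTATT or TTTAAT were present in 7.78% of the known member models with a read and in 6.99% of all transcripts. Known transcripts of the members that were read thus carried the hexamer more often than their unread neighbours in the annotation, with intervals that did not overlap; no test was made, since transcripts of a gene share ends. The ends shown are those of the annotation, as the table does not give where each read ended.

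The members were chosen on their summed reads, so their levels are a description. Together they received 985 reads in replicate 1, which is 0.0724% of the library (0.0680 to 0.0771%), and 1235 reads in replicate 2, or 0.0817% (0.0773 to 0.0864%). The mean was 0.0771% ± 0.00660 (SD, n = 2). The median member had 7 reads, against 54 for the 11277 protein-coding genes and 7 for the 301 other lincRNA genes that passed the same minimum. At the edge of the rule, 18 members had 3 reads and 34 LINC genes just outside it had 2. A share of 6.27% of the annotated LINC genes passed (5.26 to 7.46%), against 5.08% of other lincRNA genes (4.55 to 5.67%) and 56.5% of protein-coding genes. Most members were near the limit of detection, where 3 reads correspond to 2.21 and 1.99 CPM; 67 had under 10 reads and only 2 had 100 or more.

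The first 10 members held 996 of the 2220 reads, 44.9%, and LINC02446 alone held 17.1%. LINC02446 had 141 reads (104 CPM) in replicate 1 and 238 reads (158 CPM) in replicate 2, a mean of 131 CPM ± 38.1 (SD, n = 2). LINC01578 (chromosome 15, 92882707 to 92899701), also known as CHASERR, lies next to CHD2 and restrains it in cis. It had 60 and 62 reads, 44.1 and 41.0 CPM, with a mean of 42.6 CPM ± 2.17 (SD, n = 2). Its replicate values were close together and far below both values of LINC02446. Another annotated gene, AC013394.1, overlaps it on the same strand, so assignment of its reads is uncertain.

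LINC00158 (chromosome 21, 25385820 to 25431701, minus strand) had 30.1 and 33.8 CPM, and LINC01055 (chromosome 13, 45680184 to 45701184, minus strand) had 32.3 and 29.1 CPM. These ranges overlap, so the order of the pair is not resolved. LINC01184 (chromosome 5, 127940426 to 128083172, minus strand), which starts within 1000 bases of SLC12A2 on the other strand, had 26.5 and 22.5 CPM. LINC02363 (chromosome 4, 184340756 to 184353977, minus strand) had 22.1 and 23.2 CPM, which overlaps that range. LINC00467 (chromosome 1, 211382803 to 211435333) had 16.9 and 19.9 CPM. LINC00877 (chromosome 3, 72035300 to 72279503, minus strand) had 12.5 and 18.5 CPM. LINC00667 (chromosome 18, 5237826 to 5246508) had 16.2 and 13.2 CPM, and LINC01749 (chromosome 20, 63009383 to 63085071) had 15.4 and 12.6 CPM. Each of these last 4 genes overlapped its neighbour in the order of means, whereas LINC02446 and LINC01578 stood above all others in each library. In all, 6 members had a mean above 20 CPM and 14 had one between 10 and 20 CPM. Each read is 1 strand, so reads were not divided by transcript length.

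**Figure D1:**
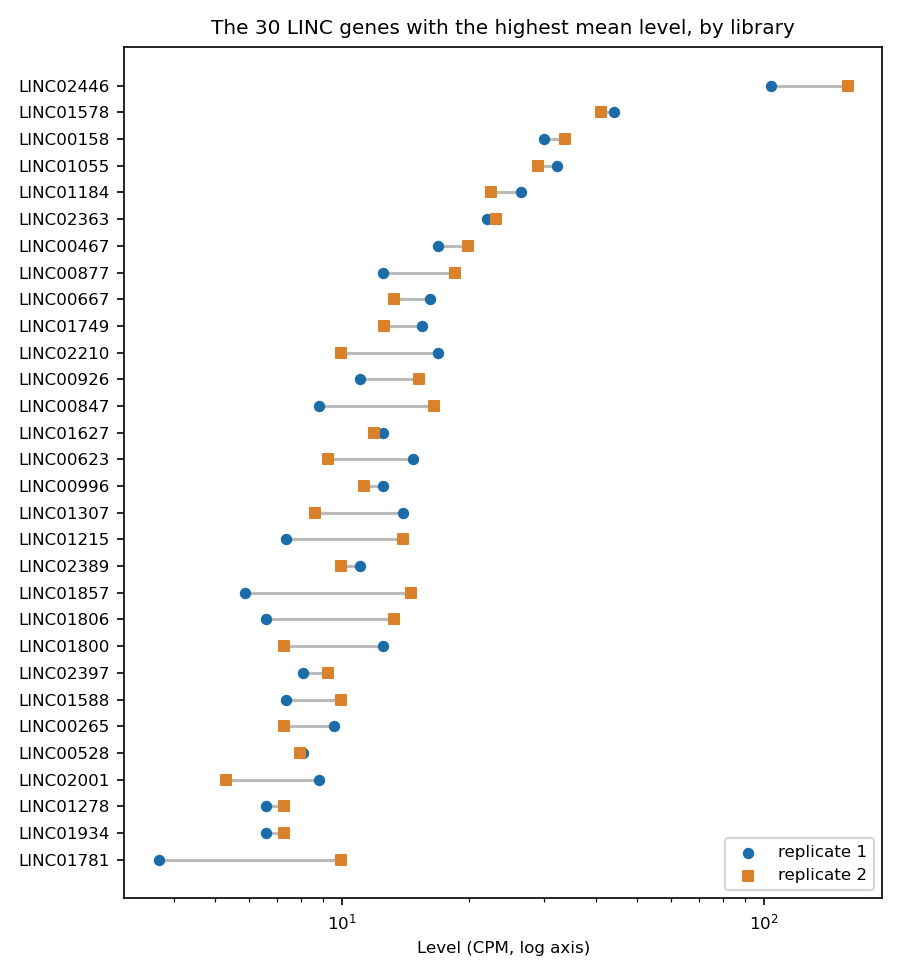
Level in CPM (log axis) of the 30 LINC genes with the highest mean, with a circle for replicate 1, a square for replicate 2 and a line joining them. LINC02446 stands apart at 104 and 158 CPM, and LINC01578 follows at 44.1 and 41.0 CPM.

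Of a list of 8 LINC genes linked to B or other lymphoid cells, 6 were members. LINC00926, known from B cells, had 15 and 23 reads, 11.03 and 15.2 CPM. LINC01215 had 7.35 and 13.9 CPM, LINC01857 5.88 and 14.6 CPM, LINC02397 8.09 and 9.27 CPM, LINC01781 3.68 and 9.93 CPM, and LINC00494 5.88 and 4.63 CPM. LINC00861 and LINC00402 had no read in either library, which allows up to 2.21 and 1.99 CPM. Of 8 LINC genes linked to other lineages (embryonic, neural, endodermal, breast, liver and prostate), none was a member: LINC00261 had 1 read in replicate 1 and the other 7 had none. Of all 1881 annotated LINC genes, 6.27% were members and 1651 had no read. The counts for other lineages are close to these shares, so they say nothing particular about lineage. A further list of 5 LINC symbols reported to encode small proteins was not analysed here, since those symbols are not in the annotation used.

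In view of what is known of LINC02446, genes of T cells were examined after its values had been seen. CD3D, CD3G, CD8A and CD8B had no read in either library. CD3E had 5 and 16 reads, and TRAC, the T cell receptor alpha constant gene, had 210 and 222 reads. Their part in the level of LINC02446 was not tested.

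Members differed from LINC genes without a read in their annotation. A member had a median of 3 annotated transcripts, a longest transcript of 1928 bases and up to 4 exons. For the 1651 LINC genes with no listed read these medians were 1 transcript, 930 bases and 3 exons, and for the 112 genes with 1 or 2 reads they were 2 transcripts, 1545 bases and 3.5 exons. A protein-coding gene started within 1000 bases upstream on the other strand in 7 members (5.93%, 2.90 to 11.7%) and in 10 of the genes with 1 or 2 reads (8.93%, 4.92 to 15.7%), against 26 of those with none (1.57%, 1.08 to 2.30%). Such divergent pairs included LINC01184 with SLC12A2 (70 and 29 reads in both libraries together), LINC01089 with SETD1B (12 and 27 reads) and LINC01547 with FAM207A (7 and 198 reads). In all, 36 members overlapped another annotated gene on the same strand, 61 overlapped one on the opposite strand and 46 overlapped none. By type, 92 members were lincRNA, 11 processed transcripts, 6 antisense and 6 transcribed unprocessed pseudogenes; the last derive from copies of other genes, so assignment of their reads is uncertain.

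To see how completely LINC reads matched the annotation, reads were divided by the category of their transcript model. A known model matches an annotated transcript, and an incomplete splice match (ISM) covers part of one, with some of its junctions or, in models of 1 exon, none. NIC models are labelled as new combinations of known splice sites and NNC models as holding at least 1 unknown site, and genomic models overlap a gene without matching its splicing. Known models held 281 of 985 reads in replicate 1 (28.5%, 25.8 to 31.4%) and 306 of 1235 in replicate 2 (24.8%, 22.5 to 27.3%). The mean was 26.7% ± 2.65 (SD, n = 2). ISM models held 22.1% and 28.99%, and genomic models 22.7% and 24.9%. NIC models held 13.8% (11.8 to 16.1%) and 10.3% (8.71 to 12.1%), and NNC models 12.8% (10.8 to 15.0%) and 11.01% (9.39 to 12.9%).

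In the 13193 other annotated genes with 3 or more reads, known models held 56.5% and 46.4%, NIC models 4.12% and 2.90%, NNC models 4.36% and 3.12%, and genomic models 10.9% and 15.3%. The comparison shifts when genes with similar numbers of reads are set side by side. Among genes with 10 to 99 reads, known models held 23.1% and 19.8% of the reads of 49 LINC genes. The same range gave 26.5% and 17.0% for 5974 protein-coding genes and 38.8% and 40.1% for 101 other lincRNA genes. In this range the known share of LINC genes was below that of protein-coding genes in replicate 1 and above it in replicate 2. It was below that of other lincRNA genes in both. The genomic share was 26.3% and 31.8% for LINC genes, with a mean of 29.1% ± 3.92 (SD, n = 2), against 34.0% ± 5.68 for protein-coding genes and 21.9% ± 3.999 for other lincRNA genes. ISM models held 20.8% (17.8 to 24.1%) and 22.7% (19.8 to 25.8%) in LINC genes, below the 30.1% and 36.5% of protein-coding genes and above the 15.8% and 15.8% of other lincRNA genes. NIC models held 16.1% and 12.0% in LINC genes against 5.70% and 3.35% in protein-coding genes, and NNC models 13.7% and 13.6% against 7.75% and 5.08%. Other lincRNA genes of this range had 14.1% and 11.04% in NIC and 12.2% and 8.28% in NNC models. Of the NIC and NNC values of LINC genes, only NNC in replicate 2 had a Wilson interval clear of that of the other lincRNA genes (11.3 to 16.3% against 6.92 to 9.88%). In the 67 members with 3 to 9 reads, NIC models held 9.396% (5.68 to 15.2%) and 5.67% (3.195 to 9.87%). Protein-coding genes with 3 to 9 reads had 6.62% and 4.295%, inside these intervals. Other lincRNA genes had 7.22% and 8.04%, also inside them. The larger NIC share was thus not resolved in the range that holds most members. NNC models of these members held 16.1% (11.07 to 22.8%) and 14.4% (10.2 to 20.1%), above the 10.7% and 7.95% of protein-coding genes. These differences between sets of genes were not tested, since all genes share the same 2 libraries.

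**Figure D2:**
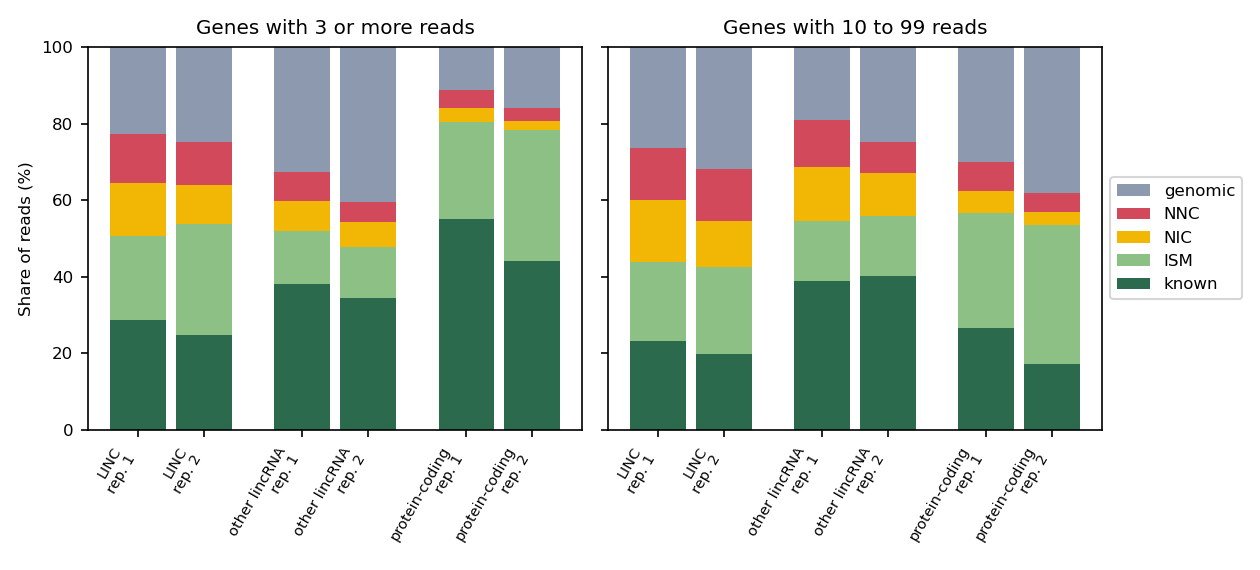
Share of reads (%) in each model category, stacked, for LINC, other lincRNA and protein-coding genes in replicates 1 and 2, over all genes with 3 or more reads (left) and over those with 10 to 99 reads (right). At 10 to 99 reads the known share of LINC genes (23.1% and 19.8%) is below that of protein-coding genes (26.5% and 17.0%) in replicate 1 and above it in replicate 2. Their NIC and NNC shares are larger in both.

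Members differed widely from each other. Known models had a read in 66 members and none in 52, and 17 of those 52 had 10 or more reads in other models. The 710 reads of the 52 members comprised 293 genomic, 163 ISM, 142 NNC and 112 NIC reads. Summed over models, the category with most reads was genomic in 40 members, known in 30, ISM in 20, NNC in 7 and NIC in 5, and 16 members had a tie. All reads of a member were genomic in 7 members and all were known in 7.

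Among members with 10 or more reads, known models held the largest share in LINC00294, LINC01963 and LINC02001. LINC00294 (chromosome 11, 33076149 to 33079454) has a single annotated transcript of 1 exon and 3306 bases, which took all of its 4 and 7 reads. LINC01963 (chromosome 2, 216217045 to 216220192), also annotated with 1 exon (3148 bases), had 9 of 9 and 4 of 5 reads in it. LINC02001 (chromosome 17, 35568109 to 35574843), which overlaps the small nucleolar RNA gene SNORD7, had 11 of 12 and 7 of 8 reads in LINC02001-201, with 2 exons and 1298 bases. For LINC00294 and LINC01963 no splice junction had to be read for a match, and LINC00294 overlaps TCP11L1 on the same strand.

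At the other end, LINC00158, LINC02363 and LINC01749 had no known read. In LINC00158, 4 transcripts of 3 to 5 exons are annotated, the longest of 1476 bases. Its most-read model was a suffix ISM of 3 exons and 2042 bases with 17 and 9 reads, longer than each annotated transcript. A genomic model of 1 exon with 10 and 13 reads followed. LINC02363 had a genomic model of 1 exon and 1073 bases with 11 and 14 reads, and an NNC model of 3 exons with 1 and 11 reads. LINC01749 had 13 and 17 genomic reads and 8 and 2 NNC reads, with none in the other categories. LINC00265, the most-read member with genomic reads only, is named after its values were seen: all of its 13 and 11 reads fell in 1 model of 1 exon and 2012 bases, whereas its 2 annotated transcripts have 4 and 12 exons.

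**Figure D3:**
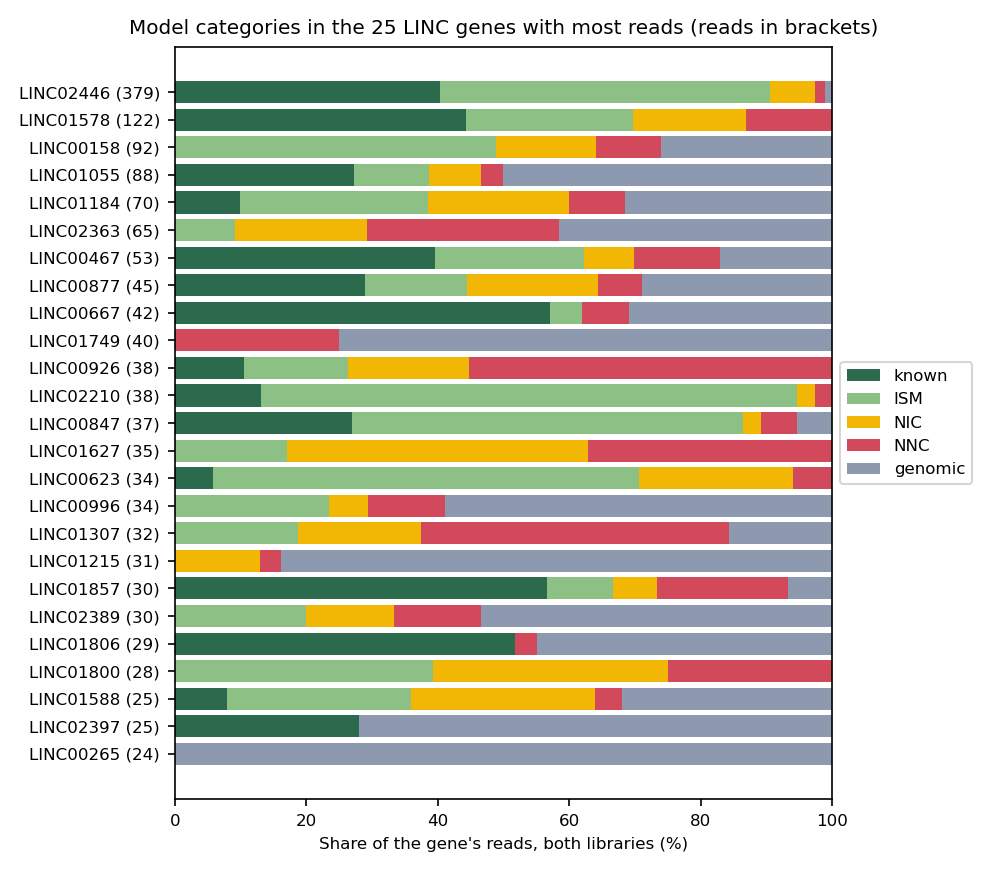
Share of reads (%) in each model category for the 25 LINC genes with the most reads, both libraries together, with the number of reads in brackets. Known models are absent from LINC00158, LINC02363 and LINC01749, and LINC00265 consists of genomic reads alone.

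Unannotated splicing recurred between libraries in some members. A NIC or NNC read was present in 82 members, and 51 of the 317 NIC and NNC models, in 31 members, had a read in both libraries. The NNC model ENCODEHT000297682 of LINC00926 (chromosome 15, 57300365 to 57307769), with 3 exons and 1099 bases, had 9 of the 15 reads in replicate 1 and 10 of 23 in replicate 2. No known model of LINC00926 came near it: the only one read was a 1-exon transcript of 1470 bases with 2 and 2 reads. In LINC01578, the NIC model ENCODEHT000440427 with 6 exons had 8 and 8 reads, beside 22 and 29 reads of the known 5-exon transcript shown above. LINC02446 had the NIC models ENCODEHT000603949 (6 and 4 reads) and ENCODEHT000603954 (3 and 10 reads), both with 2 exons.

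LINC01627 (chromosome 9, 37383178 to 37384434, minus strand) is annotated with 1 transcript of 2 exons and 243 bases, which had no read. Its NIC model ENCODEHT000575526 had 4 exons and 743 bases, with 5 and 6 reads. It has more splice sites than that transcript, and which known sites its NIC label refers to is not given in the table. Of the gene's 17 and 18 reads only 1 and 2 lay in a model of 1 exon. In total, 6 NIC or NNC models seen in both libraries, in 5 members, had more exons than any annotated transcript of their gene; besides LINC01627 and LINC02446 these were LINC02363, LINC01857 and LINC01480. The largest numbers of models were in LINC01184 (33 models for 70 reads), LINC00158 (28 for 92) and LINC01578 (21 for 122).

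Over all members, 192 of 719 models were read in both (26.7%, 23.6 to 30.1%), and 461 models (64.1%) rested on 1 read. The share found in both was 45.6% for known, 38.4% for genomic, 26.1% for incomplete, 25.5% for NIC and 8.89% for NNC models. In other annotated genes it was 60.7%, 49.3%, 34.5%, 15.5% and 11.1%. Models with similar numbers of reads can be set side by side. With 3 or 4 reads in all, 74.6% of LINC models (63.4 to 83.3%) and 72.8% of models of other genes were in both libraries, and with 5 to 9 reads 94.2% (84.4 to 98.0%) and 92.7%. At these depths the values of other genes lay inside the LINC intervals.

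Known LINC models with a read had few exons. Of 90 such models, 18 had 1 exon, 31 had 2, 21 had 3 and 20 had 4 or more, with a median of 2, against a median of 5 in all other annotated genes and 2 in other lincRNA genes. Models of 1 exon held 20.6% and 24.5% of the known LINC reads, against 13.5% and 16.5% in all other genes and 40.8% and 45.6% in other lincRNA genes. Model lengths ranged from 243 to 10626 bases, with a median of 1087. The read-weighted length of known LINC models was 1856 bases in replicate 1 and 1561 in replicate 2, which averages 1708 ± 208 (SD, n = 2). It was 1563 and 1406 bases for all other genes and 2083 and 2200 bases for other lincRNA genes, so the latter did not have the shorter value in replicate 2. Of the 632 transcripts annotated for the members, 14.2% were read.

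LINC02397-201 (2 exons, 10626 bases), LINC01278-202 (1 exon, 5053 bases) and LINC00467-201 (6 exons, 3508 bases) were the longest known models with a read in each library. They had 6 and 1, 4 and 9, and 11 and 10 reads. LINC00467-201 also had the most exons of any such model. The length is that of the model, and the table does not give how much of it each read covered. Lengths of models outside the annotation are as listed, and 4 of the 151 genomic models of members were listed at under 10 bases.

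Reads in models with 2 or more exons made up 63.1% (60.1 to 66.1%) and 51.4% (48.6 to 54.2%) of LINC reads. They made up 82.1% and 76.0% in protein-coding genes and 50.5% and 41.8% in other lincRNA genes. A spliced read was present in 104 of the 118 members. The spliced share was smaller in replicate 2 in each of these 3 sets of genes.

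The ISM reads of LINC genes differed in make-up from those of other genes, and LINC02446 held much of the difference. Suffix models, which keep the 3′ end of the transcript, held 37.2% (31.0 to 43.7%) and 27.9% (23.5 to 32.8%) of LINC ISM reads, against 68.4% and 68.1% in other genes. The 5′ part of the transcript was kept in 17.9% and 8.94% (prefix models), against 5.81% and 4.23% in all other genes and 16.2% and 11.3% in other lincRNA genes. ISM models of neither subtype held 42.7% and 61.7%, against 15.5% and 17.5% in all other genes. That label does not say whether the 3′ end was kept, so the suffix share does not measure how often it was. Within the labelled subtypes, LINC suffix models had 81 and 100 reads and prefix models 39 and 32. A single model of LINC02446, ENCODEHT000603969 with 1 exon and 1454 bases, accounted for 47 and 141 of the 218 and 358 ISM reads. Its listed length exceeds the 868 bases of LINC02446-201 and the 714 bases of exon 2 of that transcript. Without LINC02446 the suffix mean was 46.7% in place of 32.5%, the prefix mean 18.9% in place of 13.4% and the mean of neither subtype 31.8% in place of 52.2%. The suffix mean of the remaining members was still below the 68.2% of all other genes and the 65.7% of other lincRNA genes. Reads of neither subtype are part of the total in each of these means.

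The share of ISM reads was also set against the length of the known models. Only members with a read in a known model of 2 or more exons were grouped, by the mean length of those models. The 52 members without a known read, with 163 ISM reads, were thus left out. Known reads of 1 exon stayed in the totals. LINC00667 entered the longest group through a model with 1 and 0 reads, beside 11 and 12 reads of a 1-exon model. ISM models held 37.7% (31.1 to 44.7%) and 55.1% (49.6 to 60.5%) of known and ISM reads in 25 members with models under 1000 bases on average. They held 35.7% and 48.0% in 18 members from 1000 to under 2000 bases, and 35.3% (26.7 to 44.9%) and 42.3% (32.9 to 52.2%) in 11 members of 2000 bases or more. The first of these groups contains LINC02446, and without it held 36.4% (25.8 to 48.4%) and 32.3% (23.8 to 42.2%). LINC02446 thus decided whether the group of shortest models was the highest or the lowest in replicate 2. With or without it, the intervals of the first and last groups overlapped in each library.

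The levels of each gene were compared between the libraries, given their totals, by an exact binomial test (two-sided) in all 10634 annotated genes with 10 or more reads, with Benjamini-Hochberg adjustment. The test compares the reads of 2 libraries and not conditions. Of 51 members tested, 1 passed an adjusted p of 0.05, which is 1.96%, against 5.05% of all genes (2.72% higher and 2.33% lower in replicate 2). A read was present in both libraries in 112 of the 118 members. The median log2 ratio of replicate 2 to replicate 1 was 0.12 in members and 0.01 in all genes tested, with 28 members higher and 23 lower in replicate 2. Low counts limit this comparison: LINC01754 had 2 and 12 reads (log2 ratio 2.17), and LINC00909 had 10 and 2 (log2 ratio -2.22), and neither passed the exact binomial test (adjusted p 0.158 and 0.177). LINC01857 had 8 and 22 reads, a log2 ratio of 1.25 that did not pass either (exact binomial test, adjusted p 0.226). Besides the member that passed, they alone had an unadjusted p under 0.05, and LINC01754 and LINC00909 were singled out with their values known.

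**Figure D4:**
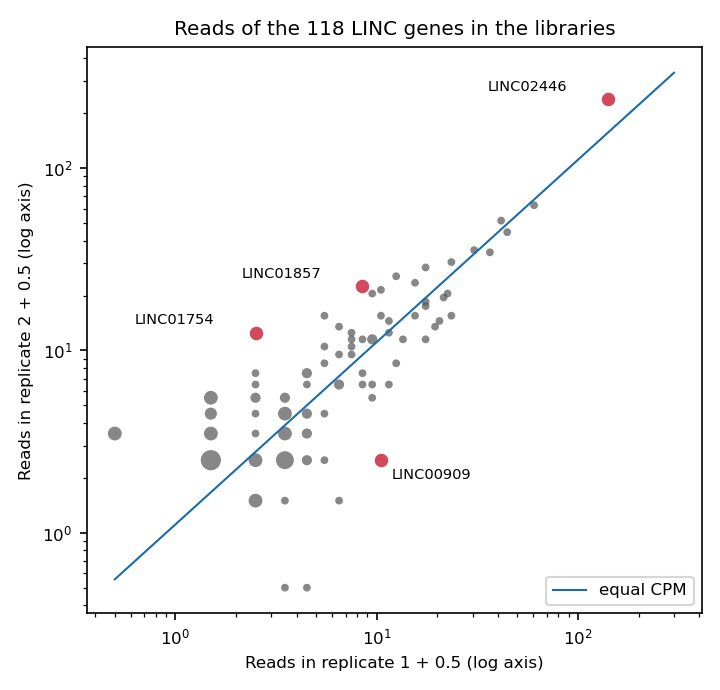
Reads of each of the 118 LINC genes in replicate 1 and replicate 2, each with 0.5 added, on log axes; larger points stand for several genes with the same counts, and the line marks equal CPM. The 4 genes with an unadjusted p under 0.05 are red, of which LINC02446 (141 and 238 reads) passed after adjustment.

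The member that passed was LINC02446, higher in replicate 2 at a log2 ratio of 0.60 (exact binomial test, adjusted p 0.00292). The libraries differed in its models of 1 exon and hardly in its spliced ones. The spliced known transcript LINC02446-201 shown above had 77 and 76 reads, 56.6 and 50.3 CPM. Models of 1 exon had 48 reads (35.3 CPM) in replicate 1 and 141 reads (93.3 CPM) in replicate 2. All models with 2 or more exons had 93 and 97 reads, 68.4 and 64.2 CPM. When only known models, or only models with 2 or more exons, were counted in all genes, LINC02446 no longer passed (exact binomial tests: log2 ratio 0.12 with adjusted p 0.821, and 0.03 with adjusted p 0.994). These ratios are relative to the library totals of those models alone. They are therefore positive although the CPM values above, relative to all reads, were lower in replicate 2.

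The share of reads in known models was compared between the libraries with Fisher's exact test in all 8898 annotated genes with 20 or more reads. Of 30 members tested, 2 passed an adjusted p of 0.05 (6.67%), against 18.3% of all genes, and both were lower in replicate 2. The 30 include 11 members with no known read in either library, which could not pass. The percentages were also not matched for numbers of reads, on which a call depends, so they do not rank stability. Of all genes, 18.1% were called lower and 0.202% higher in replicate 2. In LINC02446 the known share was 54.6% (46.4 to 62.6%) in replicate 1 and 31.9% (26.3 to 38.1%) in the other library (Fisher's exact test, adjusted p 0.000346). With known and ISM reads pooled, its share was 88.7% and 91.6% and the call was lost (Fisher's exact test, adjusted p 0.883). In LINC01055 it was 40.9% (27.7 to 55.6%) and 13.6% (6.403 to 26.7%), with 18 of 44 and 6 of 44 reads in the known transcript of 4 exons (Fisher's exact test, adjusted p 0.0434). Its models of 1 exon had 17 and 33 reads, most of them in 1 genomic model of 1022 bases with 16 and 27 reads. The pseudogene AKR1B1P4 overlaps LINC01055 on the same strand. The level of LINC01055 as a whole was 44 and 44 reads and did not pass the exact binomial test (adjusted p 0.942). The known share of LINC01055 differed by -27.3 percentage points. The call was lost at the same difference when genes with 10 or more reads entered the adjustment (Fisher's exact test, adjusted p 0.0518). It was also lost without genomic models, at -26.8 points with fewer reads (adjusted p 0.340), and with known and ISM reads pooled, at -22.7 points (adjusted p 0.325). Over the 30 members the known share was higher in replicate 2 in 7, lower in 12 and equal in 11, with a median difference of 0 percentage points against -7.13 in all genes tested; the 11 had no known read in either library.

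**Figure D5:**
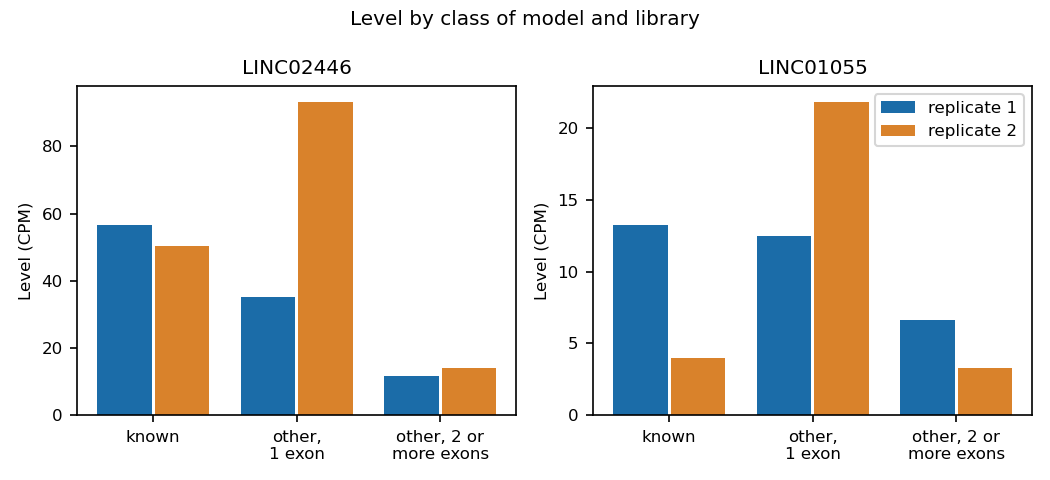
Level in CPM of LINC02446 (left) and LINC01055 (right) in known models, in other models of 1 exon and in other models of 2 or more exons, with blue bars for replicate 1 and orange bars for replicate 2. In LINC02446 the bars differ mainly for models of 1 exon (35.3 and 93.3 CPM), while known models had 56.6 and 50.3 CPM.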

How the data were processed

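Reads of 2 direct RNA libraries of GM12878 were analysed as 1 group. The authors deposited a table of raw read counts per transcript model and library, with no normalization, which its name shows to come from TALON; per the submitters' processing notes the aligner was minimap2 and the build hg38, and versions, read filters and annotation release are not given in the sources used here. Each model also carries an exon number and a length, other properties that the authors deposited beside the counts. All 23533 known models matched GENCODE release 29 by identifier, exons and length, and positions and types of all 118 members were taken from it.

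Members have a symbol of LINC and digits and 3 or more reads in all. Members and gene lists were chosen with earlier results of these data known. Gene counts are sums over models; CPM is relative to all reads of a library. Log2 ratios had 0.5 reads added. Tests (scipy 1.17.1) were run over all annotated genes with 10 or more reads (levels, exact binomial) or 20 or more (known share, Fisher), adjusted over all of them with a threshold of 0.05, and were tested on simulated data; edgeR 4.0.16 and DESeq2 1.42.0 gave alternative scalings. Shares carry Wilson 95% intervals; these and the limit of 3 reads for a count of 0 cover counting error only. The comparison with other lincRNA genes was added after the data were seen. Genes were named by rule: the 10 highest levels, genes past a test, the 3 with most models, the 3 highest and 3 lowest known shares among members with 10 or more reads, the 5 new models with the highest minimum count, the 3 longest known models and that with most exons, and gene lists. 3′ ends were examined for 7 of the 8 members with most known reads; the other is not reported here. Others were singled out with their values known.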

Additional observations from a re-analysis of the deposited data

How the results depend on the processing

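No paired analysis was possible because the libraries form 1 group. Without one library a value is that of the other library alone, which says nothing about stability: 0.0724 to 0.0817% for the read share, 24.8 to 28.5% known, 22.1 to 28.99% ISM, 10.3 to 13.8% NIC, 11.01 to 12.8% NNC, 22.7 to 24.9% genomic, 27.9 to 37.2% suffix, 8.94 to 17.9% prefix, 42.7 to 61.7% neither, and 1561 to 1856 bases.

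The LINC share of reads was 0.0677% without genomic models, 0.0406% in known models only, 0.0652% with genes of 10 or more reads and 0.0640% without LINC02446. Counting known models only, an alternative chosen after seeing the data, 37 LINC genes in place of 118 had 3 or more reads. Among models with 2 or more exons the mean shares were 36.1% known, 20.9% NIC, 20.8% NNC and 1.20% genomic; genomic models are mostly of 1 exon. Without genomic models they were 35.0% known, 33.6% ISM, 15.8% NIC and 15.6% NNC. Without LINC02446 they were 23.6% known, 14.0% NNC and 28.5% genomic. With 10 or more reads the genomic share was 21.6%. As means of per-gene shares, ISM was 17.6%, NNC 13.9% and genomic 32.0%. The suffix share was 21.3% in ISM models of 5 or more reads and 46.7% without LINC02446, and the share of neither subtype then 31.8%. The known length without LINC02446 was 2009 bases, and 40.6% of models with 2 or more reads in a library had them in both.

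In the exact binomial test of levels, LINC02446 alone passed under TMM and DESeq2 scaling, with either other minimum of reads and without genomic models. It did not pass with known models only, when 0 of 16 members did and 3 had an unadjusted p under 0.05 with a median over all genes of -0.26 on the log2 scale. Nor did it pass with models of 2 or more exons, added after seeing the data, when 0 of 32 did and 3 had an unadjusted p under 0.05 with a median of -0.15. In the Fisher test of known shares, 1 member, LINC02446, passed with genes of 10 or more reads or without genomic models, and 0 passed when known and ISM reads were pooled, with 2 at an unadjusted p under 0.05; LINC01055 passed in none of the 3, though its difference of -27.3 percentage points was -27.3, -26.8 and, pooled, -22.7. The ISM share by length without LINC02446 was added after seeing the data. The low counts limit the level test: 67 members had too few reads to enter it.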
